A study of Mus musculus with 2 samples.

Results

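Brg1 binding in mouse medulloblastoma was profiled by ChIP-seq, and 1231 of the 5727 enriched regions (islands) of the ChIP library had their midpoint within 1 kb of an end of exactly 1 protein-coding gene. This was 21.5% of the list (Wilson 95% interval 20.5 to 22.6). A further 184 islands lay that close to ends of several genes and are not among them. The 1231 islands reached 1218 of 21631 protein-coding genes (5.63%), and 13 of these had an island at each end. The tumours arose spontaneously in mice carrying CAG-CreER and Rosa26-SmoM2. CAG is a broadly active promoter and SmoM2 an activated form of Smoothened, the transducer of Hedgehog signals. There was 1 ChIP library, made with the J1 antibody against Brg1 and its paralogue Brm, and 1 input library, which is not analysed here. The number of mice or tumours behind them is not known from the labels. The tissue label could not be checked against expression. With 1 library there was no error between animals, no comparison of conditions and no test, so every set of values below is a description of this library.

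Brg1, encoded by Smarca4, is an ATPase of the BAF (SWI/SNF) complex, which slides or evicts nucleosomes and so changes the access of other proteins to DNA. Such complexes are found at enhancers and at promoters, where the nucleosome before the transcription start is often displaced. In the cerebellum, granule neuron progenitors divide in response to Sonic hedgehog, and medulloblastoma of the Shh type arises from them.

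Promoters of 8 genes reached at their start are shown here because most of the islands covered a gene start. They are the 8 genes with the most reads among the first 4 members, by reads, of the gene groups described below, limited to genes reached at the start whose RefSeq promoter begins within 50 bp of the annotated gene end. Meis1, Ephb2 and Pou4f1 missed that limit. Each line gives the 250 bases before the annotated start, 5′ to 3′ on the strand of the gene, from RefSeq on GRCm38.p6. Capitals mark matches to any of the 16 short motifs that were searched on both strands, spelled out further below.
Eef2, chr10:81176381-81176630, plus strand: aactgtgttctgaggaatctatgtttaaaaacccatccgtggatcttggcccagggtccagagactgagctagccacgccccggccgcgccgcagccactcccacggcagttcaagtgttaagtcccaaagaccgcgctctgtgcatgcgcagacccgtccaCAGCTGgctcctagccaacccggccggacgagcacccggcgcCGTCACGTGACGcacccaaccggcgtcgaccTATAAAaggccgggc
Prkar1a, chr11:109648773-109649022, plus strand: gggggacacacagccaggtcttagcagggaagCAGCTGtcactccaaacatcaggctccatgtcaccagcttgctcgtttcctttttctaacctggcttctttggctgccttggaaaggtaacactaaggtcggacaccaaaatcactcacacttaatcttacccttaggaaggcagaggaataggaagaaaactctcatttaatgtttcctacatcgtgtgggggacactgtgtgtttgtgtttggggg
Sp3, chr2:72980447-72980696, minus strand: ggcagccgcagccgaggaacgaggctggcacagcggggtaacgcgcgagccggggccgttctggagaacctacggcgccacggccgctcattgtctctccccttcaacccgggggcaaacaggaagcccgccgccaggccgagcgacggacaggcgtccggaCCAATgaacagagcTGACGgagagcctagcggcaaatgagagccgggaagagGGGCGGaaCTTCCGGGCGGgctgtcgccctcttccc
Atf4, chr15:80254934-80255183, plus strand: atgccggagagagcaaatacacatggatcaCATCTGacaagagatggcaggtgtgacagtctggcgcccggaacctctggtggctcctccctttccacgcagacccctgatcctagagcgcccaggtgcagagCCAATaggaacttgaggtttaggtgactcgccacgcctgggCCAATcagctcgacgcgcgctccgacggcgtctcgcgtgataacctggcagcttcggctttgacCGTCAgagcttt
Sox11, chr12:27342719-27342968, minus strand: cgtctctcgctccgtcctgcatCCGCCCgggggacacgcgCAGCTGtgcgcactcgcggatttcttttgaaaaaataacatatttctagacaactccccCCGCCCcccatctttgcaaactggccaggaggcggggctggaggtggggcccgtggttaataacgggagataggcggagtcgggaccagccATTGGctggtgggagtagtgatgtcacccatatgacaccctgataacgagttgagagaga
Dpf3, chr12:83487737-83487986, minus strand: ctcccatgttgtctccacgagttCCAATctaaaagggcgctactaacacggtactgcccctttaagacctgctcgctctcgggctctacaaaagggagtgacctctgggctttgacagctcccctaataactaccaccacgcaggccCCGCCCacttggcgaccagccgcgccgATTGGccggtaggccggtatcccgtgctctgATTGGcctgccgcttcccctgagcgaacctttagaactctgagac
H2ac10, chr13:23533625-23533874, plus strand: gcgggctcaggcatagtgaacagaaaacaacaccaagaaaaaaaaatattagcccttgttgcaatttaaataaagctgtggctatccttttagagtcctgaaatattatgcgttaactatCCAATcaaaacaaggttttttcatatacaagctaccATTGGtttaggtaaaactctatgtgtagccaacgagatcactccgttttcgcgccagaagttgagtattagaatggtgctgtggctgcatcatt
Ddx39b, chr17:35241496-35241745, plus strand: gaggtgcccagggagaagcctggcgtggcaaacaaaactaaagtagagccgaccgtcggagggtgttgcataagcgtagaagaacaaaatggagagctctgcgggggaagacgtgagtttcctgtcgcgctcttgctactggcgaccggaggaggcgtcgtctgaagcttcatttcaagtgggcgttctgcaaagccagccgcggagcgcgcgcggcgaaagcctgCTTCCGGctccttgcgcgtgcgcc

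The composition of these promoters differed widely. Eef2, which encodes elongation factor 2 of protein synthesis, had a TATAAA match 15 bases before the start, and a CACGTG overlapped on each side by a TGACG match, one per strand. Sp3, a GC-box binding factor, had GGGCGG matches on both sides of an ETS-type match close to the start. Dpf3, a BAF subunit, had 3 CCAAT-type matches, while Atf4, a stress-response factor, and H2ac10, a histone gene, had 2 each. At Prkar1a, a regulatory subunit of protein kinase A, and at H2ac10 the CpG counts were 3 and 6 in 250 bases, against 28 at Sp3 and 25 at Ddx39b, an RNA helicase gene. A match is a description of letters, not a site that was shown to be bound.

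The islands lay at the starts of genes in most cases, and seldom at the other end. Strand was known for the genes of 956 islands, and 12 of these were close to both ends of a short gene. Of the remaining 944 islands, 881 were at the annotated start and 63 at the other end, a share of 93.3% at the start (Wilson 95% interval 91.6 to 94.7). The genes with strand numbered 17274, so each kind of end was present in equal number. Islands at a start reached 5.10% of these genes, and islands at the other end 0.365%. By coordinate alone no such difference was seen, with 611 islands at the lower-coordinate end and 608 at the higher-coordinate end. Among the 140 islands at ends of several genes for which every strand was known, 111 lay near starts of 2 or more genes, 21 near exactly 1 start and 8 near none.

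At gene starts the midpoints lay mainly on the transcribed side. The median midpoint was 208.5 bp into the gene (interquartile range -128.5 to 529.5 bp, where a negative value lies before the start). Of the 881 islands, 579 (65.7%, Wilson 95% interval 62.5 to 68.8) had their midpoint inside the gene. The rule leaves out islands near ends of several genes, so midpoints between neighbouring starts do not enter this share. The start is the outer annotated end, so an island centred on a start further in counts as inside. How far the share depends on these choices was not tested. The fullest 200 bp interval held 142 islands, 200 to 400 bp into the gene, and the interval 800 to 1000 bp before the start held 20. In 845 of the 881 (95.9%) the island itself covered the start, and in 36 it did not. The islands of Arhgef7, a guanine nucleotide exchange factor gene, and Prpf3, a splicing factor, were centred 0.5 and 7.5 bp from it. At the limit of the rule, Nudt3, Ccdc66 and Synpr lay just inside, at 996.5, 995.5 and 993.5 bp, with 100, 66 and 72 reads. Islands near Slain2, Epha3 and Rtn4 lay just outside, at 1000.5, 1000.5 and 1002.5 bp, with 153, 84 and 99 reads.

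**Figure D1:**
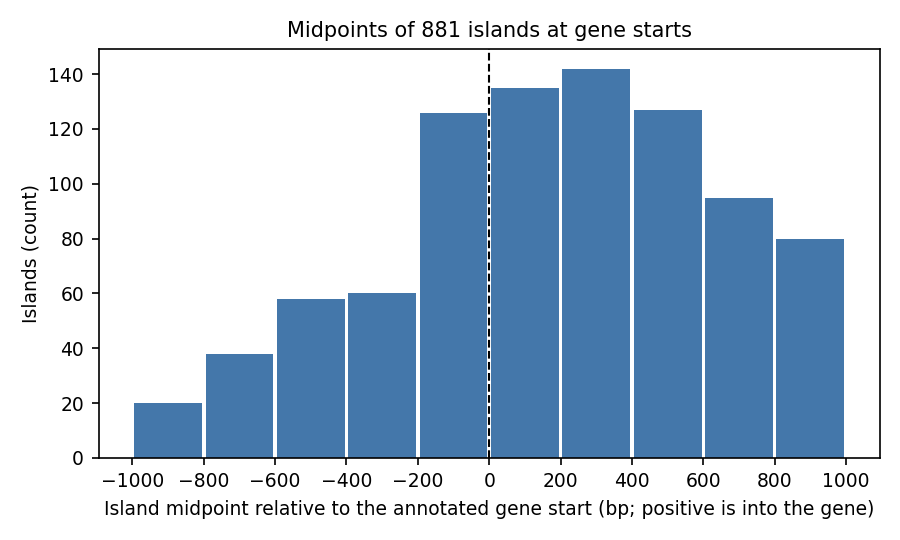
Number of islands by the distance of the midpoint from the annotated gene start, in intervals of 200 bp, for the 881 islands at a start; positive distances lie inside the gene. The counts rise from 20 at the upstream limit to 142 between 200 and 400 bp into the gene, and 80 remain between 800 and 1000 bp.

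Only 63 islands were at the other end of a gene with known strand. The start of the same gene was covered in 3 of them, at Junb, Gadd45g and Cited2, which are short genes that a wide island can span. An annotated start of another protein-coding gene was covered in 2, at Dennd6b (the start of Plxnb2) and at Gm52006 (that of Zfp36l1). A lncRNA gene end lay within 1 kb of the midpoint in 4 of the 63 (6.35%), against 131 of the 881 islands at a start (14.9%). The island with the most reads here was at A530032D15Rik, with 811, followed by Junb with 172, Slc35b1, a nucleotide sugar transporter gene, with 167, and Ercc6l2 with 138. Others covered the end and had their midpoint beyond it, at Barhl2, a homeobox gene, with 131 reads, and Sox4, an HMG-box factor gene, with 112. Median reads were 66 at the other end (exact binomial 95% interval of the median 61 to 74) and 67 at the start (66 to 69).

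The 12 islands close to both ends of a gene fell on genes with a median length of 0.5195 kb. Core histone genes, which lack introns, made up many of these: H3c11 with 202 reads, H2bu2 with 118, H4f16 with 92, H4c3 and H4c12 with 63 each, H2bc13 with 40 and H2ac18 with 39. The others were Krtap11-1 (83 reads), Gpx1, a glutathione peroxidase gene (76), Gm51999 (61), Fam181b (60) and Cebpb, a basic leucine zipper factor gene (57). The island at H3c11 was the widest of the 1231, at 8000 bp (chr13:21779332-21787331), and also covered the starts of H1f5 and H2ac22.

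Each of the 13 genes with 2 islands had 1 at each end. Of these, 9 had a known strand. Eef2 had 244 reads at the start and 54 at the other end, with midpoints 5.2 kb apart. At Barhl2, the order of the counts was the reverse, with 61 reads at the start (1800 bp) and 131 at the other end (5200 bp). At Sox4 the counts were 78 and 112. Ctdsp1, a phosphatase gene, had 75 and 88, Fgf9, a fibroblast growth factor gene, 76 and 82, and N4bp3 81 and 73. 4930402H24Rik had 83 and 67, Fgfr4, a fibroblast growth factor receptor gene, 74 and 44, and Orc5, which encodes a subunit of the origin recognition complex, 52 and 54. These counts are not adjusted for width. Reads per 200 bp were higher at the start at Barhl2 (6.78 against 5.04), Sox4 (6 against 5.33) and Ctdsp1 (6.82 against 5.87). The same held at Eef2 (7.39 against 6), N4bp3 (5.79 against 5.62) and 4930402H24Rik (5.93 against 5.15). Reads per 200 bp were higher at the other end at Fgf9 (5.07 against 6.31), Orc5 (8.67 against 9) and Fgfr4 (5.69 against 8.8). Without strand, Tmem65 had 69 reads at the lower and 91 at the higher-coordinate end, Rassf3 53 and 80, Mbp, the myelin basic protein gene, 64 and 63, and Boc, a Hedgehog co-receptor gene, 71 and 39.

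Widths ranged from 400 to 8000 bp, with a median of 2200 bp (interquartile range 1800 to 2800). Reads, which are the authors' count for each island, ranged from 27 to 811 with a median of 67 (56 to 82). The counts followed width closely: the Spearman correlation was 0.929 across the islands, which are not independent. Medians were 37 reads in the 19 islands under 1000 bp, 72 in the 426 islands from 2200 to below 3000 bp, and 128 in the 78 islands of 4000 bp or more. Reads per 200 bp, a density, had a median of 6.20 and ran the other way, at 10.3 in the narrowest of these classes and 5.60 in the widest. Only 137 islands held 100 reads or more, and 10 held 200 or more.

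**Figure D2:**
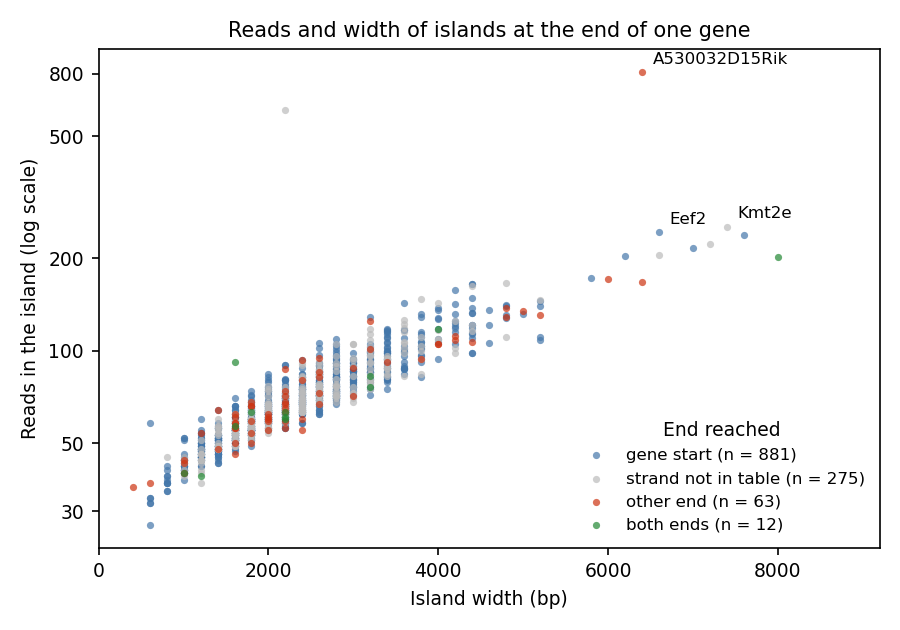
Reads (log scale) against width in bp for each of the 1231 islands, coloured by the end reached. Most points follow a single rising band. The island at A530032D15Rik (811 reads over 6400 bp) is among those that stand above it.

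Islands at the end of a single gene had medians of width and reads close to those of the other islands. Those at ends of several genes had a median of 66 reads (exact binomial 95% interval 64 to 69) and 2200 bp (2000 to 2400). Islands inside genes and over 1 kb from an end had 71 reads (70 to 72) and 2400 bp. Among islands over 10 kb from any gene the medians were 66 reads (65 to 68) and 2200 bp. The median for the end of a single gene was 67 (66 to 68). Islands of 4000 bp or more made up 6.34% at the end of a single gene and 9.79% elsewhere. These differences were not tested, and the intervals cover the number of islands only.

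The island with the most reads was that of A530032D15Rik (chr1:85084826-85091225, 811 reads, exact Poisson 95% interval 756 to 869), with 25.3 reads per 200 bp. The input is not analysed here, so this density has no background beside it. Another 8 of the 10 islands with the most reads had between 5.05 and 7.39. They were at Kmt2e, a chromatin regulator related to the trithorax methyltransferases, with 254 reads (224 to 287), Eef2 with 244 (214 to 277) and H2-DMa, a class II antigen-processing gene, with 238 (209 to 270). Egr1, an immediate early zinc-finger factor gene, had 223 (195 to 254), Xkr7 216 (188 to 247), Klf10 205 (178 to 235), Chil4, a chitinase-like gene, 203 (176 to 233) and H3c11 202 (175 to 232). The H2-DMa island also covered the start of Brd2, a bromodomain gene. Another gene's end lay inside the island in 36 of the 1231 islands (2.92%).

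Several high densities were in narrow islands: 19.3 at Oasl1 (600 bp), 18 at Speer4e (400 bp) and 12.3 at Casp9, a cell death protease gene (600 bp). The lowest densities were 4.15 at Tank, 4.27 at Rbm28, 4.32 at Alpl, 4.41 at Spaca6 and 4.42 at Adcy8, all in islands of 3400 bp or more. The fewest reads were 27 at Acp6, an acid phosphatase gene.

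The 1218 genes reached were 5.63% of the 21631 protein-coding genes on chromosomes 1 to 19 and X. This share is the background for the gene groups that follow, and no group was tested against it. Of 48 groups, 31 had a higher share than all genes, and 8 were above 3 times it. The reached genes were longer than genes in general, with a median of 31.7 kb against 17.3 kb. The groups hold 238 of the reached genes, and 980 stand in none of them.

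**Figure D3:**
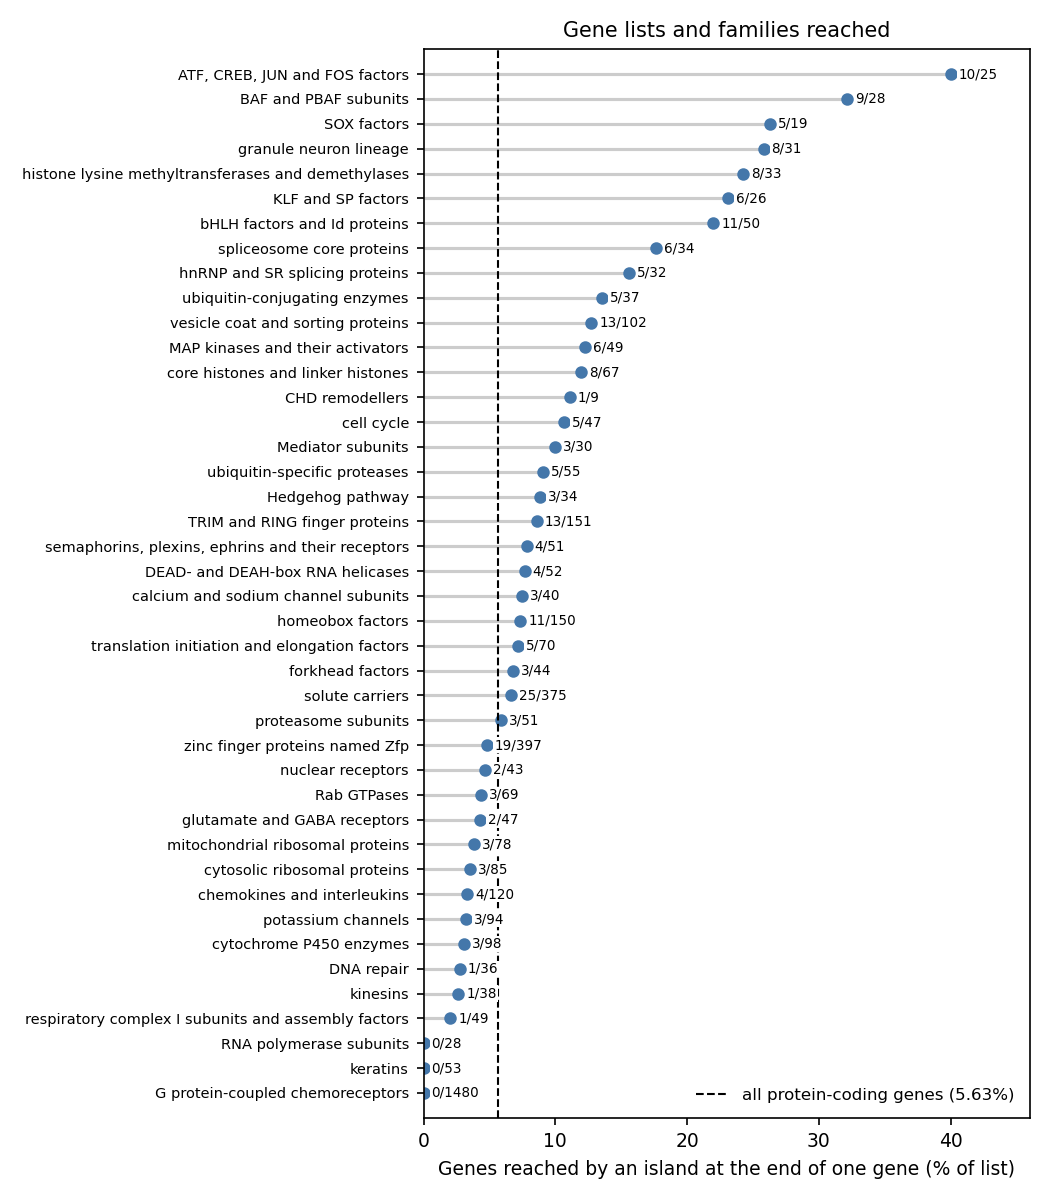
Percent of each gene group (the 5 small marker groups and 1 other are left out) whose members were reached by an island at the end of a single gene, with the number reached and the number annotated; the dashed line is the share of all protein-coding genes, 5.63%. The ATF, CREB, JUN and FOS factors stand at 40% and the chemoreceptors, keratins and RNA polymerase subunits at 0.

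The highest share was that of basic leucine zipper factors that respond to signals and stress. Of 25 ATF, CREB, JUN and FOS genes, 10 were reached (40%), with a median of 74 reads. Junb had 172 reads and Jund 125, both at the other end of the gene, and Atf4, the effector of the integrated stress response, had 118 at its start. Atf2 and Fos had 80 each, Creb1, the cAMP-responsive factor, 68, Atf6 and Atf7 63 each, Atf3 62 and Crem 57. Of 26 KLF and SP genes, whose products bind GC-rich promoter boxes, 6 were reached (23.1%): Klf10 with 205 reads, Sp3 with 133, Klf9 with 85, Sp4 with 81, Klf3 with 74 and Sp1 with 66.

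Chromatin regulators had shares above the background in several groups. Of 28 BAF and PBAF subunit genes, 9 were (32.1%, median 69 reads). Smarca4, the gene of Brg1 itself, had 54 reads (exact Poisson 95% interval 40.6 to 70.5) with the midpoint 150.5 bp into the gene. Dpf3, a reader of modified histones, had 104, Smarce1 84, Smarcb1, a core subunit, 81, Smarcc2 78, Arid1a 69, Arid1b 66, Bcl11a 61 and Bcl7b 51. All 8 of those with a known strand were reached at the start. Histone lysine methyltransferase and demethylase genes were reached in 8 of 33 (24.2%). After Kmt2e, the counts were 98 at Kdm3a, 91 at Kmt2a, 87 at both Kmt2c and Setd2, 81 at Kdm2b, 52 at Kdm1a and 44 at Kdm3b. Chd4, a remodeller of the NuRD complex, was the 1 of 9 CHD genes reached, with 61 reads.

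Transcription factors of the granule neuron lineage and of neural progenitors also had shares above the background. Of 31 granule neuron lineage genes 8 were reached (25.8%, median 92.5 reads). Meis1, a homeobox gene of granule progenitors, had 173 reads (148 to 201) centred 46.5 bp before the start. Nfib, a nuclear factor I gene, had 147, Barhl2 131 and Mycn, a Hedgehog-responsive driver of progenitor division, 94, centred 758.5 bp before the start. Nhlh2 had 91 reads, Atoh1, which specifies the lineage, 89 centred 418.5 bp before the start, Etv1 85 and Nhlh1 71. Of 19 SOX genes 5 were reached (26.3%): Sox11 with 117 reads, Sox4 with 112, Sox1 with 82, Sox5 with 68 and Sox2, a stem cell factor gene, with 56. Among 50 bHLH and Id genes 11 were reached (22.0%), led by Bhlhe22 with 108 and Olig1 with 102, and Mycn and Atoh1 stand in this group too.

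Homeobox genes as a whole were near the background, at 11 of 150 (7.33%), although their median was 82 reads. After Meis1 and Barhl2, the counts included 103 at Pou4f1, a POU factor gene. Forkhead genes were reached in 3 of 44 (6.82%): Foxp2 with 98 reads, Foxp1 with 89 and Foxc1 with 32. Of 397 Zfp genes 19 were reached (4.79%), led by Zfp521 with 143 reads, Zfp608 with 125, Zfp207 with 95, and Zfp41 and Zfp143 with 91 each. Nuclear receptor genes were at 2 of 43, Nr2c2 with 99 reads and Nr1d1, a clock repressor gene, with 63.

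Of 34 Hedgehog pathway genes 3 were reached (8.82%). With a window of 2 kb, or by any overlap (any part of the island within 1 kb of an end), 6 were (17.6%). The 3 included Prkar1a, part of the kinase that restrains Gli factors, with 145 reads (122 to 171), and Boc with 71. The rule left out several islands in or near lineage and pathway genes by their midpoint. The island nearest to an end of Gli1, the transcription factor used as a readout of the pathway (131 reads), was centred 1334.5 bp from it. The distances were 1337.5 bp at Smarca2 (93 reads), 1592.5 bp at Neurod1, a granule neuron bHLH gene (123 reads), and 2306.5 bp at Actb, the beta-actin gene (217 reads). They were 2694.5 bp at Zic1 (85 reads), 5667.5 bp at Ptch1 (159 reads) and 5843.5 bp at Nfia (231 reads). The island nearest to Zic1 was centred outside it and inside another gene. At Ccnd1, the cyclin D1 gene, the nearest island (53 reads, 464.5 bp) was shared with another gene.

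Among genes of RNA processing, 6 of 34 spliceosome core genes were reached (17.6%): Prpf4b with 92 reads, Prpf3 and Prpf38b with 70 each, Snrpg with 67, Sf3b4 with 61 and Prpf38a with 59. Of 32 hnRNP and SR genes, 5 were (15.6%), all at the start, with Srsf10 at 94 reads, Hnrnpab at 73, Hnrnpl at 70, and Hnrnpa3 and Srsf2 at 64 each. The RNA helicase group had 4 of 52 (7.69%): Ddx39b with 102, Ddx3x with 91, Ddx59 with 86 and Ddx20 with 49. Translation factors had 5 of 70 (7.14%), where Eef2 was followed by Eif4a1 with 72, Eif4h with 67, Eef1a1 with 54 and Eif4a3 with 42. Mediator genes, which bridge factors and RNA polymerase, had 3 of 30: Med12l with 80, Med13l with 78 and Med25 with 60.

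Genes of ribosomes had shares below that of all genes, and the proteasome group was near it. Cytosolic ribosomal protein genes were at 3 of 85 (3.53%), Rpl27 with 55 reads, Rpl37a with 51 and Rpl29 with 41. Mitochondrial ribosomal protein genes were at 3 of 78 (3.85%), Mrpl15 with 57, Mrps36 with 49 and Mrpl9 with 42. Proteasome genes were at 3 of 51 (5.88%), Psma3 with 59, Psma1 with 56 and Psmd3 with 52. None of 28 RNA polymerase subunit genes was reached. With a window of 2 kb, or by any overlap (any part of the island within 1 kb of an end), 2 were (7.14%). A gene that was not reached may still have an island shared with another gene or centred over 1 kb from its ends. Where no island was called, this does not mean that Brg1 was missing.

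In the cell cycle group 5 of 47 were reached (10.6%), all at the start: Cdk4, a partner of D cyclins, with 76 reads, E2f2 with 61, E2f1 with 60, Mcm5, a replicative helicase subunit gene, with 49 and Mdm2, the p53 ubiquitin ligase gene, with 48. DNA repair genes were at 1 of 36, Xrcc5 with 51. The core and linker histone group does not hold H2bu2, H4f16, H3f3a and H3f3b, all of which were reached. Of its 67 genes 8 were reached (11.9%), where H2ac10 with 104, H4c14 with 86 and H1f0 with 76 came after H3c11. This share depended on the rule: 4 of 67 (5.97%) were reached with a window of 2 kb and 3 (4.48%) by any overlap, both below the share of all genes under the same setting.

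Signalling and protein turnover groups were mostly above the background. MAP kinases and their activators were at 6 of 49 (12.2%), led by Map3k4 and Mapk6 with 76 reads each, Map3k20 with 73 and Map3k14 with 48. Ubiquitin-conjugating enzyme genes were at 5 of 37 (13.5%), led by Ube2w with 74, Ube2q1 with 72 and Ube2e3 with 70, and ubiquitin-specific proteases at 5 of 55 (9.09%), led by Usp46 and Usp49 with 76 each. TRIM and RING finger genes were at 13 of 151 (8.61%), with 90 reads at Trim8. Vesicle coat and sorting genes were at 13 of 102 (12.7%), with a median of 56 reads, led by Snx9 with 88 and Sec14l1 with 74. Rab genes were at 3 of 69 (4.35%), Rab2a with 95, Rab6b with 61 and Rab11b with 47, and kinesins at 1 of 38, Kif2a with 60.

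Genes of neuronal connection and excitability lay on both sides of the background. Semaphorin, plexin and ephrin genes were at 4 of 51 (7.84%): Ephb2, an axon guidance receptor gene, with 116 reads, Sema7a with 81, Efnb2 with 61 and Plxna2 with 46. Calcium and sodium channel genes were at 3 of 40 (7.50%): Cacna1a, whose channel is abundant in the cerebellum, with 92, Scn3b with 57 and Cacna2d3 with 41. Potassium channel genes were at 3 of 94 (3.19%): Kcna3 with 79, Kcnh5 with 75 and Kcnip3 with 61. Glutamate and GABA receptor genes were at 2 of 47 (4.26%), with 67 reads at Grik4. Solute carriers were at 25 of 375 (6.67%), led by Slc35b1, Slc38a2 with 88, Slc16a14 with 87 and Slc12a2 with 77.

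Several gene families of other tissues had shares below the background. No island reached any of 1480 chemoreceptor genes or 53 keratin genes. Cytochrome P450 genes were at 3 of 98 (3.06%), Cyp11a1 with 60 reads, Cyp46a1 with 58 and Cyp2r1 with 55. The chemokine and interleukin group, which also holds receptor genes, was at 4 of 120 (3.33%). Of these, Il17ra, Il6st and Il11ra1, genes of receptor subunits, had 89, 82 and 46 reads, and Cxcl12, a chemokine gene, had 55. Markers of other cell types, 6 genes for each type, were reached in 1 case each (16.7%, above the background but resting on a single gene) for oligodendrocytes (Mbp, 64 reads), astrocytes and Bergmann glia (Gfap, 49 reads), and liver and muscle (Acta1, 50 reads), and in none for microglia and macrophages or for endothelial and mural cells. Binding near a marker gene says nothing of its expression, and the cell makeup of the tumour was not tested.

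Promoters of the genes reached at the start held more CpG than promoters in general. In the 250 bases before the start the median GC content was 64.0% for the 881 reached genes and 55.6% for all 17274 genes with a RefSeq promoter. The median number of CpG was 20 (interquartile range 13 to 27) against 10 (3 to 19). The ratio of observed to expected CpG was 0.6 or more in 706 reached genes (80.1%) and in 7906 of all genes (45.8%). For the 54 genes reached at the other end alone, this share was 51.9%. A lncRNA gene end lay within 1 kb of the start in 15.7% of the reached genes (138 of 881) and in 7.88% of all genes with strand.

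**Figure D4:**
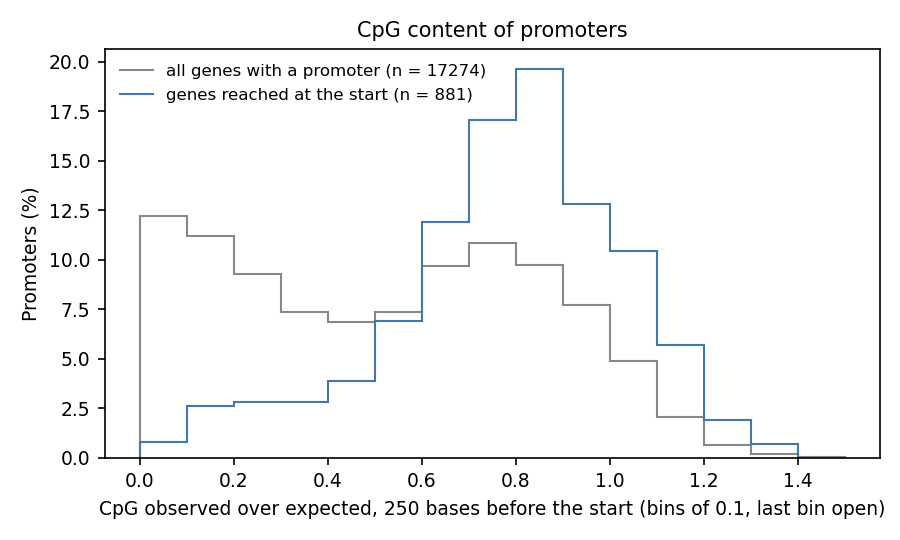
Percent of promoters by the ratio of observed to expected CpG in the 250 bases before the start, for the 881 genes reached at the start (blue) and all 17274 genes with a promoter (grey). The medians were 0.805 and 0.546.

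Motifs were searched on both strands of the same 250 bases. Those of general promoter factors were the CCAAT box, spelled as named, the GC box bound by Sp factors, spelled GGGCGG, and the TATA box, spelled TATAAA. Those of signal-responsive factors were the full CRE, TGACGTCA, its core, spelled TGACG and held by every full CRE, and the AP-1 element, spelled TGANTCA. The motif of ETS factors was spelled CCGGAAG, that of Gli factors GACCACCCA, that of nuclear factor I proteins TTGGCA, and that of Zic factors CAGCAGG. The E-boxes of bHLH factors were searched as CAGCTG, then separately as CAGATG, and also as CACGTG. A further 3 motifs, of NRF1, YY1 and THAP11, are given by name. The GC box was found in 67.8% of the promoters reached and in 43.2% of all promoters. TGACG was in 30.1% and 20.5%, and the full CRE in 3.18% and 2.01%. TATAAA was in 5.90% against 12.5%, and the AP-1 motif in 3.18% against 6.23%. CCAAT was in 35.9% and 36.8%, and ETS in 9.42% and 9.26%.

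Several of these differences were smaller among CpG-rich promoters. Among promoters with a CpG ratio of 0.6 or more (706 reached, 7906 in all), the GC box was in 75.2% and 69.6%, TGACG in 33.6% and 31.7%, and TATAAA in 4.82% and 5.15%. In this class the full CRE was in 3.68% and 3.39%, and the AP-1 motif in 2.55% and 2.91%. The ETS motif was in 10.2% of the reached promoters of this class and in 15.9% of all promoters of it. For the E-boxes the shares over all promoters were 13.1% and 11.7% for CAGCTG, 8.29% and 12.5% for CAGATG, and 8.74% and 6.73% for CACGTG. Among CpG-rich promoters they were 11.8% and 9.88%, 6.66% and 7.63%, and 9.35% and 9.79%, in the same order. Over all promoters, the nuclear factor I motif was in 8.74% and 11.8%, the Zic motif in 7.26% and 8.23%, and the NRF1 motif in 2.04% and 1.07%. Among CpG-rich promoters these 3 were in 7.51% and 8.02%, 6.94% and 6.88%, and 2.41% and 2.12%. Gli matches were in 4 of the 881 (0.454%), at Gm11541, Magi3, Pcif1 and Stra6l, and in 27 of all 17274 (0.156%). YY1 matches were in 4, at Ip6k1, Mcm5, Pcif1 and Zfp207 (0.454% and 0.359%), and THAP11 matches in 3, at Atl3, Brms1l and Wdr59 (0.341% and 0.417%). These genes were named after their values were seen. The window ends at the start, so sequence in the gene under the island was not searched.

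Some of the genes reached at an end carried further islands inside. Of 766 reached genes over 20 kb long, 173 (22.6%) had an island more than 1 kb from both ends, against 1511 of all 9975 genes of that length (15.1%). Genes with 4 islands inside included Fbxw8, Zfp608, Reln, which encodes the migration signal reelin, Rassf3, Gsg1l, Ebf1 and Cdh4.

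By chromosome the share of genes reached ran from 3.10% on chromosome 7 to 7.86% on chromosome 15 among the autosomes. Chromosome X held only 23 islands of any kind, against 150 to 471 on each autosome. Of these 23, 6 (26.1%) were at the end of a single gene, against 21.5% in the whole list. They reached 0.621% of its 966 genes, so the low share on X went with few islands of any kind. Among the 6 were Ubqln2 with 98 reads, Ddx3x with 91, Rps6ka3 with 68, Nyx with 44 and Syp, the synaptophysin gene, with 43. Median reads on the chromosomes ran from 61 to 72. On X the median was 62.

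**Figure D5:**
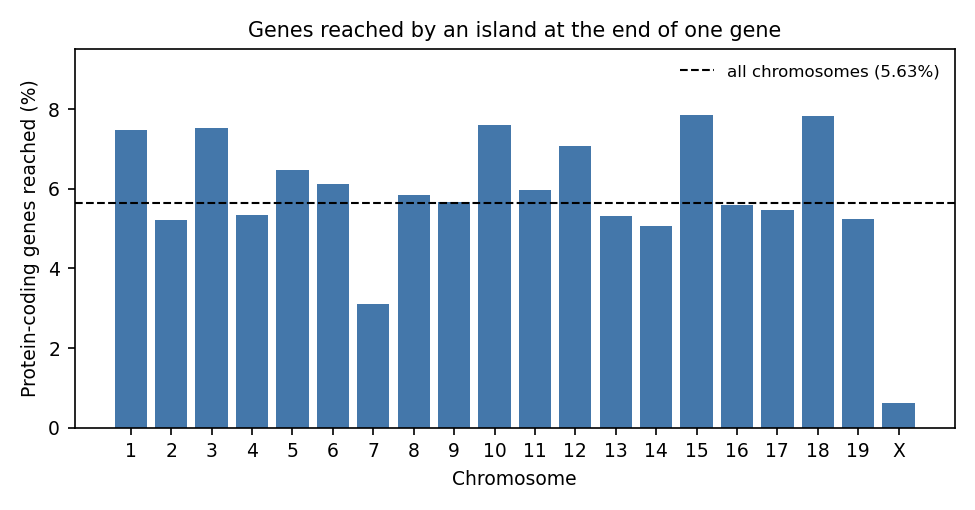
Percent of protein-coding genes on each chromosome reached by an island at the end of a single gene; the dashed line is the share over all chromosomes, 5.63%. Autosomes lie between 3.10% and 7.86%, and chromosome X at 0.621%. Chromosome X held 23 islands of any kind, against 150 to 471 on each autosome.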

How the data were processed

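Per the labels' protocols, crosslinked tumour cells were sonicated and chromatin was immunoprecipitated. As tools, the submitters' processing notes name the aligner Bowtie 0.12.7, the tool set Picard 1.127, the island caller SICER 1.1 and both mm9 and mm10, with no step given for any. For caller settings and use of the input, nothing was stated. The 4th column of the deposited list was taken as the count of reads per island from its values, whole numbers that rise with width, and it is not scaled for depth. The depth of the library is unknown.

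Coordinates are 1-based on mm10, read as windows with an inclusive end. Genes, strands and promoters came from RefSeq on GRCm38.p6. The strand was matched by gene ID for 17274 of 21631 genes (79.9%). These include no gene of chromosome 18, so its 41 islands enter no value on starts, promoters or motifs. A gene start is the outer end of the annotated gene, and for promoters the RefSeq start nearest to it was used. Shares carry Wilson 95% intervals, medians exact binomial and reads exact Poisson ones, and all cover counting error only. Reads are not independent molecules. The rule was checked on simulated islands. The members, gene groups and motifs were chosen with earlier results of these data known. Genes named in the text are those with the most reads, the highest and lowest densities and the largest widths, up to 4 per group (more where a group is given in full), genes with 2 islands, those at the 1 kb limit, and 12 genes of the lineage and complex. Other examples, and groups given in full, were chosen after their values were seen. A few genes and 1 group that the rule would name are not reported here. No set or chance test was run. Work was done in Python 3.11.15 with pandas 2.3.3 and scipy 1.17.1.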

Additional observations from a re-analysis of the deposited data

How the results depend on the processing

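The 8 main values (counts, shares and medians of the islands) and the count of each gene group were recomputed under 8 alternatives. Values on promoters, motifs, offsets, lncRNA genes, chromosomes and further islands were not. Leaving out chromosome X, leaving out islands above 3 times the median density, and counting genes of any type kept all 8 main values within their intervals or within 1.5 times. Leaving out X removed only 6 of the 1231 islands and the density limit only 3, so these alternatives could change little. With a window of 500 bp there were 807 islands and 806 genes, with 60.97% of midpoints inside the gene, a median of 64 reads and a density of 6.33. With 2 kb, 70.2% of midpoints were inside, and the medians were 2400 bp and 69 reads. Counting any overlap, where any part of the island and not its midpoint lay within 1 kb of an end, gave 91.2% at the start and 70.5% inside. The medians were then 2400 bp, 71 reads and a density of 6.11. The islands at or above the median reads left 600 islands and 595 genes, at 2800 bp, 83 reads and a density of 5.88. Those in the top 25% by reads left 262 islands and 262 genes, 89.7% at the start, 61.5% inside, 3400 bp, 100.5 reads and a density of 5.96. Fewer islands enter the last pair by construction, and width and reads rise with their threshold. The ATF, CREB, JUN and FOS group kept a share at least 5.14 times that of all genes in each of the 8, the granule neuron group 4.33, the KLF and SP group 4.11, the SOX group 3.89, the methyltransferase and demethylase group 3.23, BAF and PBAF 2.95, bHLH and Id genes 2.68 and the spliceosome core 2.10. Some of these shares rest on very few genes in the top 25% by reads. There, 1 of 28 BAF and PBAF genes was reached, which gave the 2.95, and 1 of 34 spliceosome core genes. The SOX group and the KLF and SP group had 2 each. Of the groups under the background, ribosomal protein genes of both kinds and potassium channels stayed under it in all 8, while Zfp genes were above it in 2. In all, 22 of 48 groups changed side in at least 1 alternative. With the 2 kb window and with any overlap, the histone, Mediator and proteasome groups moved below the background, and RNA polymerase subunits and endothelial markers above it. No paired analysis was possible because there is 1 ChIP library, and no replicate could be left out for the same reason.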

Other observations

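A few genes that restrain receptor tyrosine kinase signalling were picked after their values were seen, with no count of such genes in all. Dusp4 and Dusp6, phosphatases of MAP kinases, had islands of 166 reads (exact Poisson 95% interval 142 to 193) and 143 (121 to 168). Spry2 and Spred2, inhibitors of the same cascade, had 136 (114 to 161) and 80 (63.4 to 99.6), and Dusp1 had 68 (52.8 to 86.2). The median of all islands at the end of a single gene was 67.

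Other genes were picked in the same way. Ptma and Ptms, which encode the acidic proteins prothymosin and parathymosin, had 158 and 140 reads at their starts. H3f3a and H3f3b, both of which encode histone H3.3, had 136 at the start and 61 at the other end. The corepressor genes Tle3 and Rcor2 had 149 and 133 reads. No test was run on any of them.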
